A study of Mus musculus with 8 samples.

Results

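The Ifi200 family cluster on mouse chromosome 1 holds genes for DNA-binding proteins that interferons induce. It was followed here as 10 genes (Ifi202b, Ifi203, Ifi204, Ifi205, Ifi207, Ifi209, Ifi211, Ifi213, Mndal and Aim2) of the 54532 gene rows in the deposited count table. The members were taken by gene symbol. They had been chosen with their per-library values and their difference between knockout and wild-type libraries known, so those values are given as a description and support nothing by themselves. All 10 lie between 173350879 and 174031810 on chromosome 1 (GRCm38), a stretch of 681 kb.

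The cells were macrophages from the peritoneal cavity of mice given thioglycollate broth, which provokes a sterile inflammation there. All 8 libraries share that treatment. The groups were 3 M_KO and 3 M_WT libraries and 1 F_KO and 1 F_WT library, where KO is a knockout of Men1, the gene for menin, a scaffold of histone H3K4 methyltransferase complexes. Each title carries an animal number of its own. The labels do not spell out the letters M and F and do not give the strain, the age or how Men1 was deleted, so nothing is known here of the promoter or cell type behind the deletion. Nothing in the labels says whether animals shared a litter or a day, and p-values measure only the spread between these samples.

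Proteins of this family combine a HIN domain, which binds DNA, with, in most members, a pyrin domain, which binds other pyrin domains. AIM2 senses double-stranded DNA in the cytosol and recruits the adaptor ASC, the product of Pycard, to activate caspase-1. IFI204 is a mouse relative of human IFI16 and has been linked to DNA sensing through STING, while IFI202, which lacks a pyrin domain, can restrain AIM2. In macrophages type I interferon acts through its receptor on genes that carry the interferon-stimulated response element in their promoters. Ifi202b is also known for levels that differ widely between inbred mouse strains.

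Total counts ran from 18206427 to 22853583 per library. Men1 was at 6.46 to 8.42 CPM in M_KO and 17.2 to 25.7 CPM in M_WT, and at 11.7 CPM in F_KO and 18.1 CPM in F_WT, where CPM are counts scaled to library size by the TMM method. Core macrophage markers (Adgre1, Csf1r, Cd68 and 5 others) had no marker at 0 in any library and summed to 17910 to 24490 CPM in all libraries but M_WT_5643, at 32120 CPM. No 2 libraries of a group agreed within sampling noise (chi-square per degree of freedom from 26.2 to 166). M_KO_5944 stood apart from the other M_KO libraries in its interferon-stimulated genes, and M_KO_5642 had the lowest sum of resident macrophage markers (4623 CPM, against 7513 to 15350 CPM elsewhere).

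The promoters are shown first because the members are set beside interferon-stimulated genes below. No library was labelled as given interferon. RefSeq promoter sequences (GRCm38.p6, 250 bases before to 50 after a start site) matched 9 of the 10 members, all but Ifi204. They were searched on both strands for the core of the interferon-stimulated response element, GAAA followed by any 2 bases and GAAA again, and for the gamma-activated site (GAS), TTCNNNGAA, which can overlap it by a few letters. The response element was present in 6 of the 9 (Ifi203, Ifi205, Ifi207, Ifi211, Ifi213 and Mndal), against 3.99% of 27025 genes with such a sequence and 14 of 29 genes of the interferon-stimulated list described below. In 60 bases around the match, read 5′ to 3′ on the strand of the gene with the match in capitals, the members ran as follows.
Ifi211: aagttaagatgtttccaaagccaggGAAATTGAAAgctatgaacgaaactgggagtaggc
Ifi205: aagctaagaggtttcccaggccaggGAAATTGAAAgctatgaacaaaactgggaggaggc
Ifi207: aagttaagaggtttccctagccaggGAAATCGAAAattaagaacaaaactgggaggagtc
Mndal: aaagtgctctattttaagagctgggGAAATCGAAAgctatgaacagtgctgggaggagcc
Ifi203: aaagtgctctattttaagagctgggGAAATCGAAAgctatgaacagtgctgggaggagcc
Ifi213: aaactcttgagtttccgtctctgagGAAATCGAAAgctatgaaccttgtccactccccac
Ifi209: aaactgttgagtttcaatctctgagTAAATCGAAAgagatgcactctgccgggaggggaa

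These windows, all GRCm38.p6, lie at chr1:173913049-173913108 (minus strand, Ifi211), chr1:174031855-174031914 (minus, Ifi205), chr1:173741816-173741875 (minus, Ifi207), chr1:173880189-173880248 (minus, Mndal), chr1:173942493-173942552 (minus, Ifi203), chr1:173599311-173599370 (minus, Ifi213) and chr1:173630755-173630814 (plus, Ifi209). The Ifi205 and Ifi211 windows were identical at 54 of 60 positions, and the Ifi203 and Mndal windows at 60 of 60. The Ifi213 window was further from the others with a match, at 29 (Ifi207) to 34 (Ifi203 and Mndal) of 60. The Ifi209 window was found by the best ungapped placement of the Ifi211 window, with which it shares 32 of 60 positions, and its capitals mark the aligned letters, which are no match. Counting from 1 at the 5′ end of the element, they carry the substitution G1T against the motif. Counted from the start site, the match shown began at -35 in Ifi203 (its second start in the table), -36 in Mndal, -37 in Ifi211, -41 in Ifi207, -73 in Ifi213 and -134 in Ifi205. Ifi205 had another match at 23, past its start, and Mndal had a match at -54 from its second start. Each promoter window holds 300 bases, so these results say nothing of elements further away.

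Ifi202b had no match to the response element in this window and was the only one of the 9 members with a match to the GAS letters, which 9.55% of genes hold. Its values, given below, followed those of interferon-stimulated genes in part (Pearson 0.87 over 8 libraries). Relative to a straight line on the mean of those genes, residuals were 0.93 log2 units in M_KO_5645, -0.68 in F_KO and -0.73 in F_WT. The 250 upstream bases of Ifi202b (chr1:173982845-173983094, minus strand, GRCm38.p6) are shown with that match in capitals.
Ifi202b: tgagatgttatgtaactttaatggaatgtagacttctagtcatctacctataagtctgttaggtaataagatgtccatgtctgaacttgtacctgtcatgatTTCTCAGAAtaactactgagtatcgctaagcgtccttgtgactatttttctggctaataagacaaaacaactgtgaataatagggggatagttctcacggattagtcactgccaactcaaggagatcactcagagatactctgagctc

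Aim2 and Ifi209 had neither motif. The letters GAGGAA, the core of the PU.1 site of myeloid cells, were present in Ifi213 and Aim2 (2 of 9 members, against 31.3% of genes).

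Levels between genes were compared per length, as the FPKM values deposited by the authors. Ifi202b and Mndal were the most abundant members in the M libraries. Ifi202b was at 102.6, 49.9 and 27.7 FPKM in M_KO (M_KO_5944, M_KO_5645 and M_KO_5642, the order used throughout for M_KO) and at 157.5, 123.3 and 80.9 FPKM in M_WT (M_WT_5643, M_WT_6258 and M_WT_6255). Mndal, a nuclear protein of the myeloid lineage, was at 85.9, 65.3 and 43.0 FPKM in M_KO and 93.7, 69.4 and 64.2 FPKM in M_WT. In the F libraries Mndal led, with 73.1 FPKM in F_KO and 64.9 FPKM in F_WT, followed by Ifi203 with 47.1 FPKM in F_KO and 43.1 FPKM in F_WT. Ifi213 was the lowest member in every library, at most 0.237 FPKM.

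**Figure D1:**
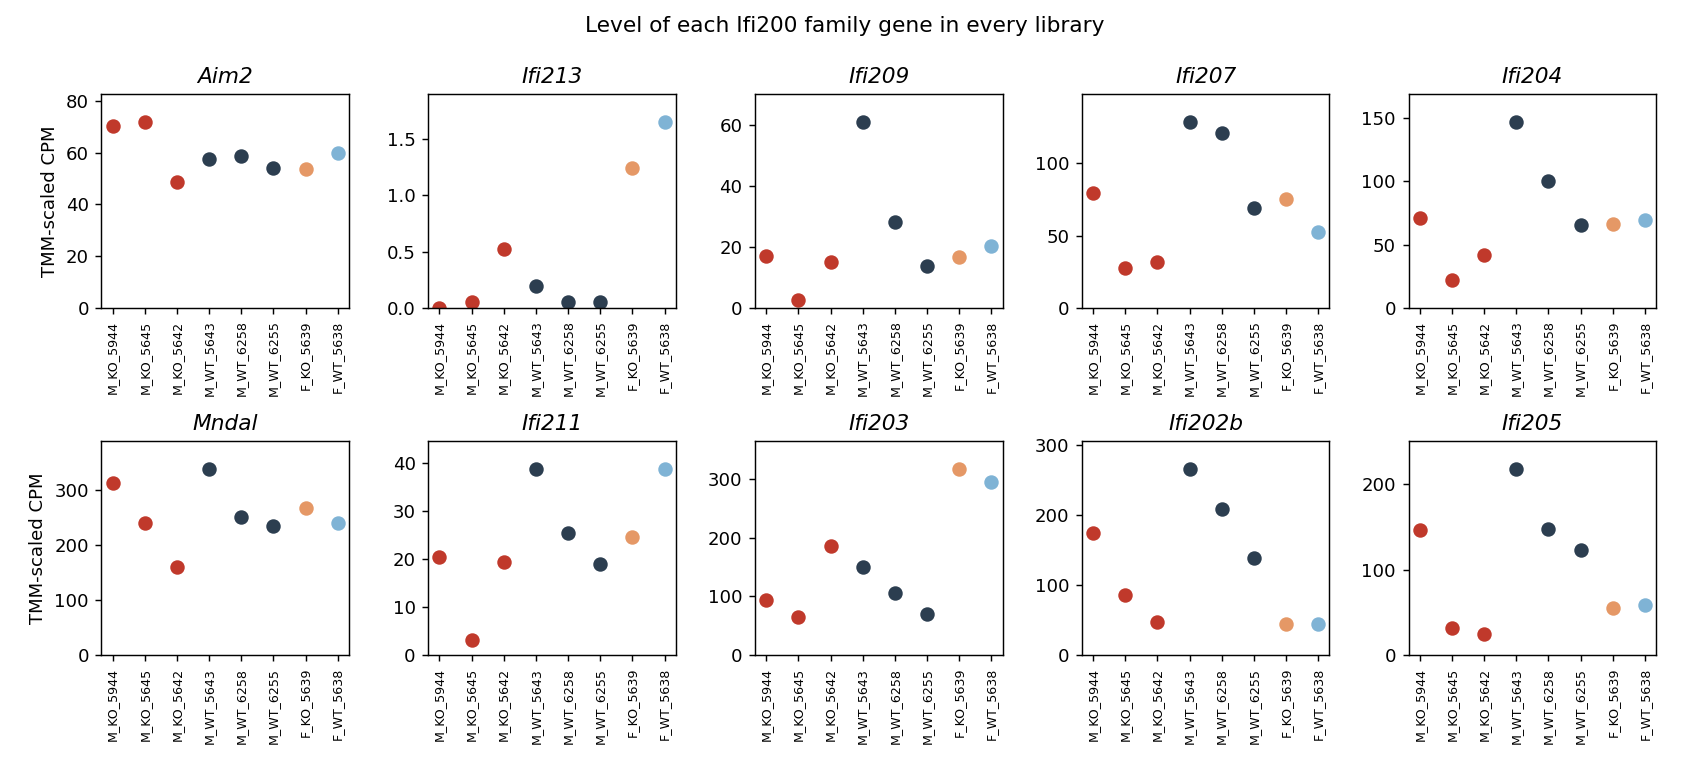
TMM-scaled CPM (linear axes from 0) of the 10 members in each of the 8 libraries, 1 point per library, with members in order of their start on chromosome 1. Ifi205 and Ifi207 are lowest in M_KO_5645 and M_KO_5642, Ifi209 and Ifi211 are lowest in M_KO_5645 alone, and Ifi213 and Ifi203 are highest in the 2 F libraries.

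Ifi205, Ifi207 and Ifi204 tracked interferon-stimulated genes, and 2 of the 3 M_KO libraries had values below every M_WT library. Ifi205, an interferon-inducible member expressed in macrophages, was at 146.9, 32.3 and 24.6 CPM in M_KO and 218.0, 147.9 and 123.3 CPM in M_WT. M_KO_5944 lay inside the M_WT range, and both other M_KO libraries lay far below it. The means were 67.9 ± 68.5 CPM in M_KO and 163 ± 49.1 CPM in M_WT (SD, n = 3 each), a log2 difference of -1.27 (SE 0.68). Leaving out 1 library at a time, it ran from -2.52 (without M_KO_5944) to -0.87 (without M_KO_5642).

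Ifi207 was similar, with 79.8, 27.6 and 31.7 CPM in M_KO and 129.0, 120.8 and 68.9 CPM in M_WT (log2 difference -1.20, SE 0.45). Ifi204 was at 70.8, 21.9 and 42.1 CPM in M_KO and 147.2, 100.2 and 65.2 CPM in M_WT (log2 difference -1.22, SE 0.46). For both genes M_KO_5944 overlapped the M_WT libraries, and the other M_KO libraries did not. Leaving out 1 library at a time, the difference ran from -1.85 (without M_KO_5944) to -0.94 (without M_KO_5645) for Ifi207, and from -1.71 (without M_KO_5944) to -0.88 (without M_WT_5643) for Ifi204.

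In the F pair Ifi205 and Ifi204 were nearly level, and Ifi207 was higher in F_KO. Ifi205 was at 55.2 CPM in F_KO and 58.4 CPM in F_WT, Ifi204 at 66.6 CPM in F_KO and 69.5 CPM in F_WT, and Ifi207 at 75.6 CPM in F_KO and 52.5 CPM in F_WT. With 1 library per genotype these differences have no replicate check.

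A list of 41 measured interferon-stimulated genes that holds no member of the cluster served as the yardstick. Its mean log2 CPM, relative to the 8 libraries, was 0.88, -1.49 and -1.36 in M_KO and 1.62, 1.07 and 0.48 in M_WT, and -0.62 in F_KO and -0.58 in F_WT. M_KO_5944 therefore stood with the M_WT libraries, and both F libraries stood between the 2 sets. Isg15, a ubiquitin-like antiviral protein, followed this order with 83.0, 10.5 and 13.9 CPM in M_KO and 168, 117 and 77.0 CPM in M_WT, and so did Ifit1, Irf7, Mx1 and Oas3 in setting M_KO_5645 and M_KO_5642 below all M_WT libraries. All 41 list genes had a lower fitted value in M_KO than in M_WT, against 48.5% of all genes, with a median log2 difference of -1.27 against 0.01 over all genes tested. None was called by edgeR at an adjusted p under 0.05, against 0.0220% of all genes, and DESeq2 called 1, Ifi27l2a, which fell, against 1.21% of all genes.

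Across the 8 libraries, log2 CPM of Ifi205 followed the list mean with a Pearson correlation of 0.99 (Spearman 0.98), which stayed at 0.98 without M_KO_5645 and M_WT_5643, the libraries farthest from the median of the list. For Ifi207 Pearson's r was 0.93 (Spearman 0.93), and 0.86 without those libraries. For Ifi204 it was 0.87 (Spearman 0.93) and 0.80, for Ifi202b 0.87 (Spearman 0.76) and 0.95, and for Mndal 0.72 (Spearman 0.67) and 0.70. These correlations are a description over 8 points that share library and depth, and 7.87% of all tested genes reached 0.7, as did 6 of the 10 members. The slope of the line, in log2 units per log2 unit of the list mean, was 0.96 for Ifi205, 0.78 for Ifi202b, 0.64 for Ifi207, 0.60 for Ifi204 and 0.20 for Mndal. Within the 6 M libraries alone, the correlation was 0.99 for Ifi205, 0.99 for Ifi207, 0.94 for Ifi204, 0.94 for Ifi202b, 0.82 for Ifi209, 0.78 for Mndal and 0.76 for Ifi211, and it was 0.10 for Ifi203, 0.02 for Aim2 and -0.35 for Ifi213.

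Ifi203, by contrast, had a Pearson correlation of -0.21 with the list mean (Spearman -0.02), Ifi213 -0.44 (Spearman -0.24) and Aim2 0.07 (Spearman 0.05). Without the 2 farthest libraries these were -0.75, -0.82 and 0.68, so they rest on few libraries. For Ifi209 and Ifi211 the relation over 8 libraries was weaker without the 2 farthest: it was 0.75 for Ifi209 (Spearman 0.81) and 0.55 for Ifi211 (Spearman 0.57) over all 8, and 0.44 for Ifi209 and -0.16 for Ifi211 without them.

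**Figure D2:**
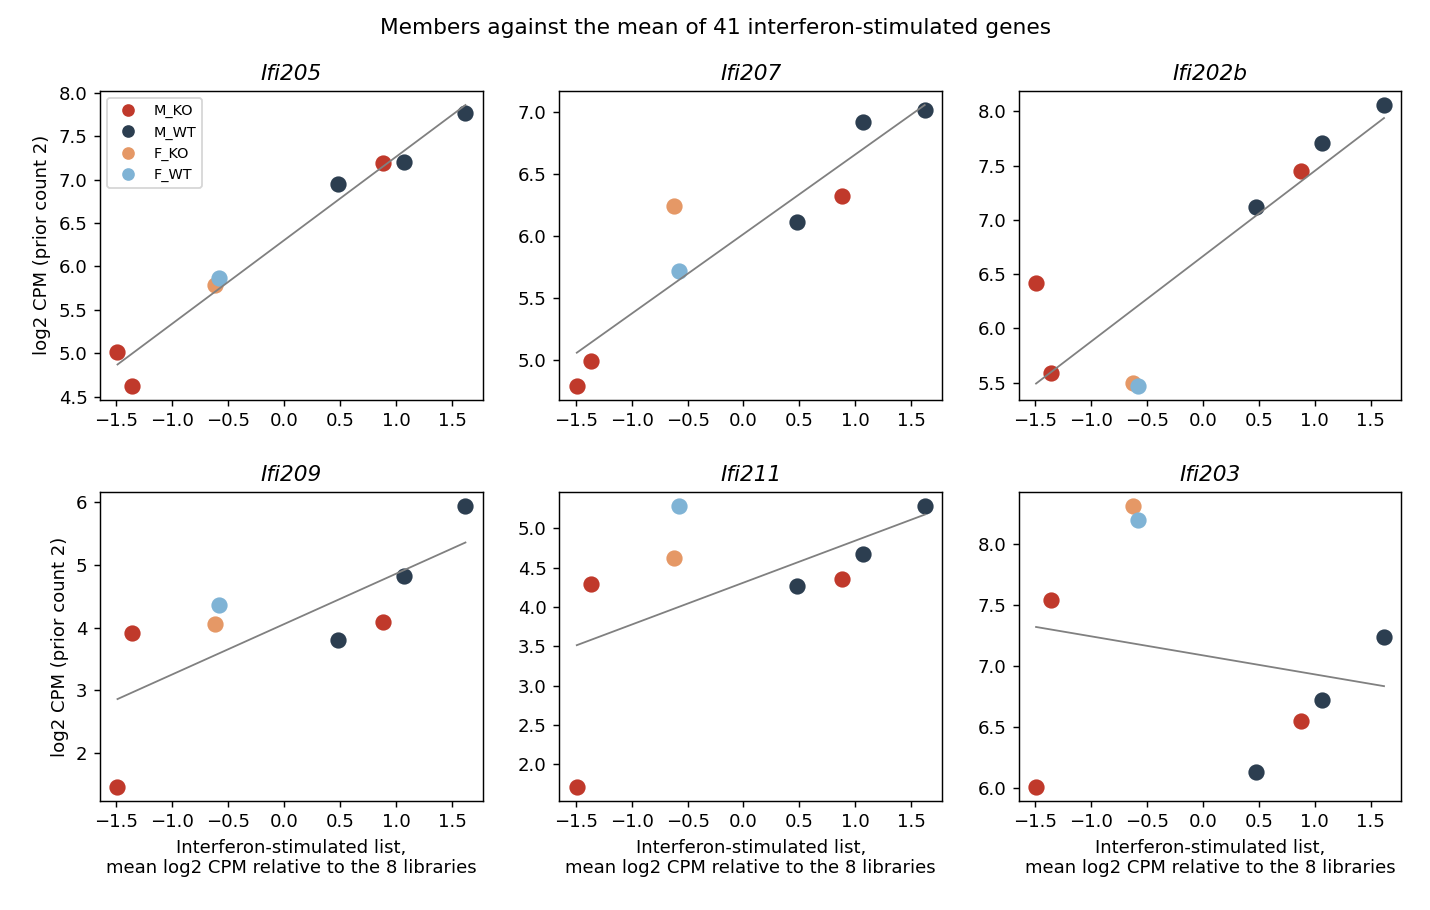
Log2 CPM of 6 members (prior count 2) against the mean log2 CPM of 41 interferon-stimulated genes, centred over the 8 libraries, with 1 point per library coloured by group and a least-squares line. Ifi205 lies within 0.37 log2 units of its line in every library, while M_KO_5645 falls far below the others in Ifi209 and Ifi211 and both F libraries sit above the line in Ifi203 and below it in Ifi202b.

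Ifi209 and Ifi211 separated 2 knockout libraries that were alike in their interferon-stimulated genes. Ifi209 was at 17.0, 2.66 and 14.9 CPM in M_KO and 61.1, 28.3 and 13.9 CPM in M_WT, and at 16.6 CPM in F_KO and 20.4 CPM in F_WT. Ifi211 was at 20.4, 3.18 and 19.5 CPM in M_KO and 38.8, 25.4 and 19.1 CPM in M_WT, and at 24.5 CPM in F_KO and 38.9 CPM in F_WT. M_KO_5645 held the lowest value of both genes by a wide margin, with 52 counts of Ifi209 and 62 of Ifi211. M_KO_5642, whose list mean was almost the same, lay within the range of the remaining libraries.

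Relative to a straight line on the list mean, M_KO_5645 had a residual of -1.4 log2 units in Ifi209 and -1.80 in Ifi211, and M_KO_5642 had 0.94 in Ifi209 and 0.71 in Ifi211. Each line was fitted with M_KO_5645 included, whose low values pull it down near M_KO_5642. The positive residuals of M_KO_5642 therefore do not show raised values. In CPM it lay just above M_WT_6255 in Ifi209 (14.9 against 13.9 CPM) and in Ifi211 (19.5 against 19.1 CPM). In M_KO_5645 Ifi213 (residual -2.04), Ifi203 (-1.31) and Ifi204 (-0.65) were below the line too, while Ifi202b was above it (0.93). Ifi205, Ifi207, Mndal and Aim2 were within 0.31 of it. The Ifi213 residual rests on 1 count, the same as in M_WT_6258 and M_WT_6255. Ifi203 in M_KO_5645 (64.4 CPM) was close to M_WT_6255 (69.9 CPM). The lines of Ifi213 and Ifi203 were poor, with correlations of -0.44 and -0.21, so their residuals do not mark values low for M_KO_5645 alone. Ifi209 and Ifi211 were low in that library, and Ifi205, Ifi207 and Mndal kept near their lines. The line of Aim2 was nearly flat (slope 0.01), and M_KO_5645 was its highest library (72.0 CPM). The log2 difference between M_KO and M_WT was -1.59 (SE 0.75) for Ifi209 and -0.96 (SE 0.63) for Ifi211, and these became -1.12 and -0.49 without M_KO_5645. For Ifi209 it was -0.87 without M_WT_5643.

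Ifi203 and Ifi202b, which lie next to each other at 173920407 to 173942672 and 173962568 to 173982744 on the minus strand, differed in balance between libraries. Ifi203 was at 93.9, 64.4 and 186 CPM in M_KO and 150.6, 105.8 and 69.9 CPM in M_WT, but at 317.4 CPM in F_KO and 294.5 CPM in F_WT. Ifi202b was at 174.4, 85.6 and 48.1 CPM in M_KO and 266.3, 209.1 and 138.6 CPM in M_WT, but at 45.0 CPM in F_KO and 44.4 CPM in F_WT. M_KO_5642 and the F libraries thus held the 3 highest values of Ifi203 and the 3 lowest of Ifi202b, with both genotypes on the same side.

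Of the counts of both genes together, Ifi203 took 35%, 42.9% and 79.4% in M_KO and 36.1%, 33.6% and 33.5% in M_WT, and 87.6% in F_KO and 86.9% in F_WT. The 95% exact Clopper-Pearson interval was 78.4% to 80.5% in M_KO_5642 and 41.1% to 44.7% in M_KO_5645. Such intervals, and the floors below, cover counting error only, because PCR reads lacking molecular identifiers may repeat 1 molecule. Per length, the ratio of Ifi203 to Ifi202b FPKM was 0.136, 0.190 and 0.978 in M_KO and 0.143, 0.128 and 0.128 in M_WT, against 1.78 in F_KO and 1.68 in F_WT, so that per length Ifi203 exceeded Ifi202b in the F libraries and not in M_KO_5642.

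A share above 50% occurred in 1 of 3 M_KO libraries, in 0 of 3 M_WT libraries, in F_KO and in F_WT. M_KO_5642 and M_KO_5645, nearly level on the interferon-stimulated list, had shares of 79.4% and 42.9%. M_KO_5642 also had the lowest sum of resident macrophage markers of all libraries, whereas F_KO was at 12670 CPM and F_WT at 7513 CPM, and the part of these cells in the share was not tested. The log2 difference of Ifi203 between M_KO and M_WT was 0.07 (SE 0.43), and it turned to -0.46 without M_KO_5642 and to -0.17 without M_WT_6255. For Ifi202b it was -1.0 (SE 0.48), -1.61 without M_KO_5944 and -0.66 without M_KO_5642.

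**Figure D3:**
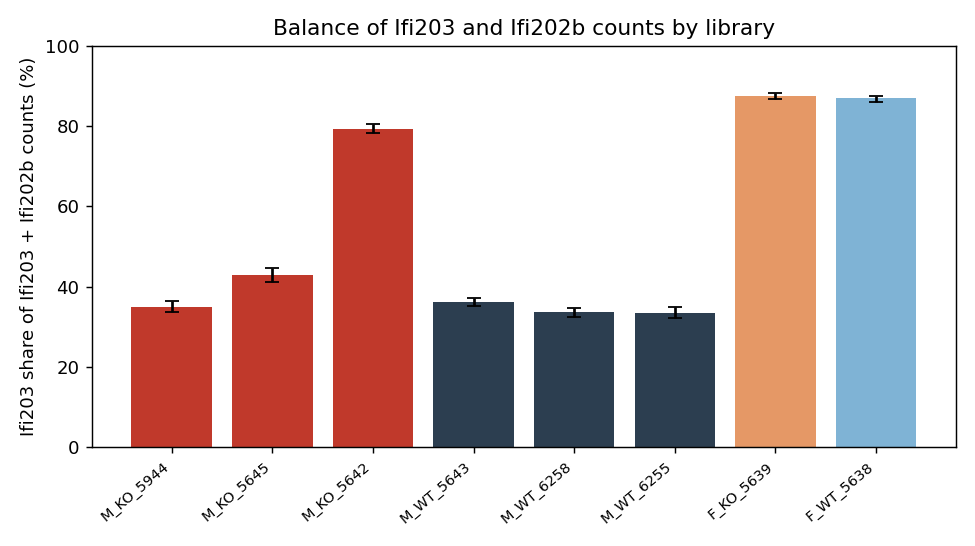
Share of Ifi203 in the summed counts of Ifi203 and Ifi202b, in percent, for each library, with bars from 0 coloured by group and 95% exact Clopper-Pearson intervals that cover counting error only. M_KO_5642 (79.4%), F_KO (87.6%) and F_WT (86.9%) stand above the other 5 libraries, which lie between 33.5% and 42.9%.

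Ifi213 was at or near the detection limit in most libraries, and its 3 highest values were in the same libraries as those of Ifi203. It had 0, 1 and 13 counts in M_KO and 4, 1 and 1 counts in M_WT, and 26 counts in F_KO and 38 in F_WT. These are 0, 0.0512 and 0.519 CPM in M_KO and 0.197, 0.0533 and 0.0506 CPM in M_WT, against 1.24 CPM in F_KO and 1.65 CPM in F_WT. A count of 0 in M_KO_5944 allows up to 3 counts, or 0.170 CPM, so 5 libraries were near or under the floor. The gene did not pass the expression filter and was not tested.

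A member was called on/off where its highest library was at least 16-fold above its lowest and reached 1 CPM. The name marks a wide range and not absence, since Ifi209 was still at 2.66 CPM (52 counts) in its lowest library. The rule does not separate a switch from a graded change. On the scale with a prior count of 2 it held for Ifi209 (22.2-fold) and Ifi213 (18-fold), where 1.99% of all tested genes had such a range. Ifi213 did not pass the filter and is not among those genes, so that share is no background for a gene with so few counts. The value for Ifi213 depends on the prior count, since M_KO_5944 had no count: against the floor of 3 counts in that library, F_WT was at least 9.71-fold higher. Just outside the threshold were Ifi211 at 11.9-fold and Ifi205 at 8.83-fold. The genes outside the cluster with the pattern most like Ifi213 over the 8 libraries, among 11137 with a mean log2 CPM of at least 1, were Gatm (Pearson 0.972), Bend4 (0.962) and Gm8186 (0.957), on chromosomes 2, 5 and 17. For Ifi209 they were Pdgfrb, Bcl2a1d and Rpl19, each at 0.960, on chromosomes 18, 9 and 11. None is on chromosome 1, and with so many genes searched a value this high is no finding.

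Aim2 and Mndal had the narrowest ranges of the 10 members over the 8 libraries. AIM2 is the cytosolic DNA sensor of the inflammasome. Aim2 was at 70.2, 72.0 and 48.7 CPM in M_KO and 57.6, 58.6 and 54.1 CPM in M_WT, and at 53.75 CPM in F_KO and 59.96 CPM in F_WT, a range of 1.48-fold over all libraries. Mndal ranged over 2.12-fold, with 312.1, 239.5 and 159.6 CPM in M_KO and 338.6, 251.7 and 235.3 CPM in M_WT, and 266.7 CPM in F_KO and 239.7 CPM in F_WT. The log2 differences between M_KO and M_WT were 0.16 (SE 0.17) for Aim2 and -0.22 (SE 0.27) for Mndal, and for both genes the groups overlapped.

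**Figure D4:**
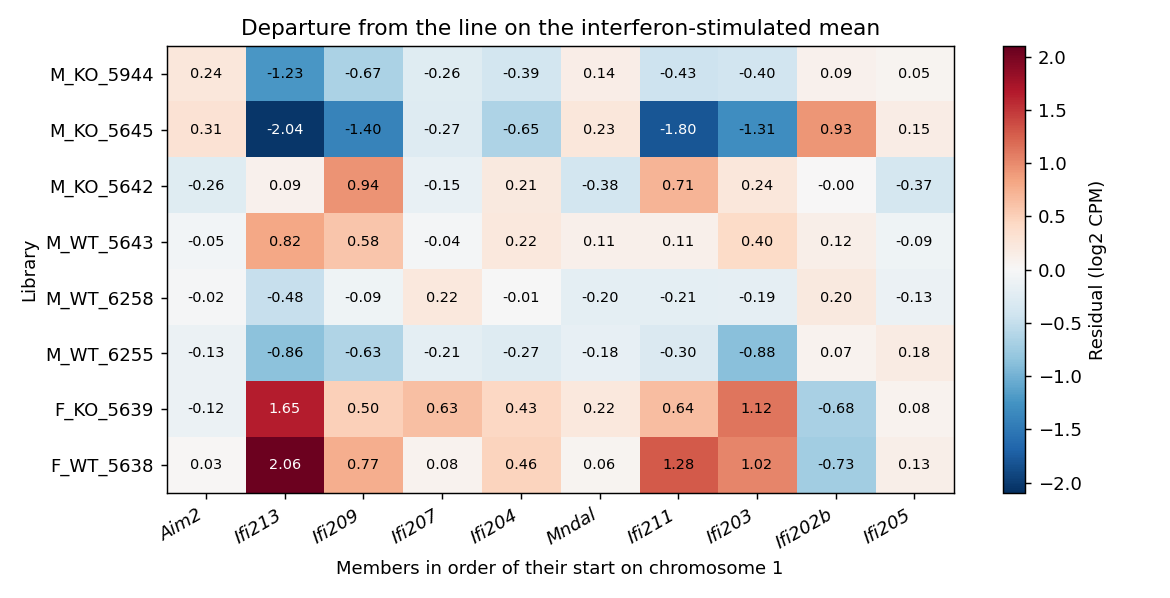
Residual of each member's log2 CPM from its least-squares line on the interferon-stimulated mean, for the 8 libraries (rows) and the 10 members in order of their start on chromosome 1 (columns), with red above and blue below the line. M_KO_5645 is below the line in Ifi213, Ifi209, Ifi211 and Ifi203, the F libraries are above it in the same genes, and Aim2, Mndal and Ifi205 stay within 0.38 everywhere. For Ifi213 the M_KO_5645 value rests on 1 count.

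No member passed the threshold in any of the genotype comparisons. Of the 10 members, 9 passed the expression filter. In M_KO against M_WT, edgeR called 0 of them at an adjusted p under 0.05, against 0.0220% of 13646 genes, and 2 (Ifi204 and Ifi207, named after their values were seen) had an unadjusted p under 0.05, against 9.56% of genes. DESeq2 also called 0, against 1.21% of genes, and the authors' deposited table called 0, against 0.553%. Men1 itself, with a log2 difference of -1.49 (SE 0.21), was not called by edgeR (adjusted p 0.284) but was by DESeq2 (adjusted p 4.45e-06). An edgeR count of 0 therefore does not show that there is no difference. For Ifi213, which the edgeR fit left out, the authors' deposited table gives a log2 fold change of 0.93, and DESeq2 here gave 0.92 (SE 1.66). These rest on 13 counts in M_KO_5642, with 0 in M_KO_5944 and 1 in M_KO_5645. In 0 of 10 members did every M_KO library lie below every M_WT library, against 6.95% of genes, or above, against 9.09%. Fitted values were lower for 7 of the 9 and higher for 2, against 48.5% of all genes with a negative value, and their median log2 difference was -1.0 beside 0.01 over all genes tested. Since the members were chosen on this comparison, nothing is read from these counts.

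Summed over the 10 members, the cluster had 985.5, 549.2 and 575.7 CPM in M_KO and 1407, 1048 and 788.4 CPM in M_WT, and 922.7 CPM in F_KO and 879.8 CPM in F_WT. The log2 ratio of the group means was -0.62 (703.5 ± 244.6 CPM in M_KO and 1081 ± 310.9 CPM in M_WT, SD, n = 3 each), and M_KO_5944 lay within the M_WT range.

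In a fit to all 8 libraries that allowed for a shift between M and F, edgeR called 0 members by genotype, against 0.00727% of 13751 genes, and 0 had an unadjusted p under 0.05, against 9.48%. The interaction of genotype with the letter called 0 members as well, against 0.0218%, and 0 had an unadjusted p under 0.05, against 4.36%. DESeq2 called 0 members by genotype, against 0.874%, and 0 for the interaction, against 0.168%. The fitted difference of differences (F minus M) was 1.75 (SE 0.91) for Ifi207, 1.21 (SE 1.35) for Ifi205, 1.18 (SE 0.92) for Ifi204 and 1.04 (SE 0.95) for Ifi202b. It was 1.31 (SE 1.48) for Ifi209, 0.39 (SE 0.54) for Mndal and 0.32 (SE 1.25) for Ifi211. For Ifi203 it was 0.06 (SE 0.86), and for Aim2 -0.3 (SE 0.35). With 1 F library per genotype, these estimates have no replicate check within F.

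**Figure D5:**
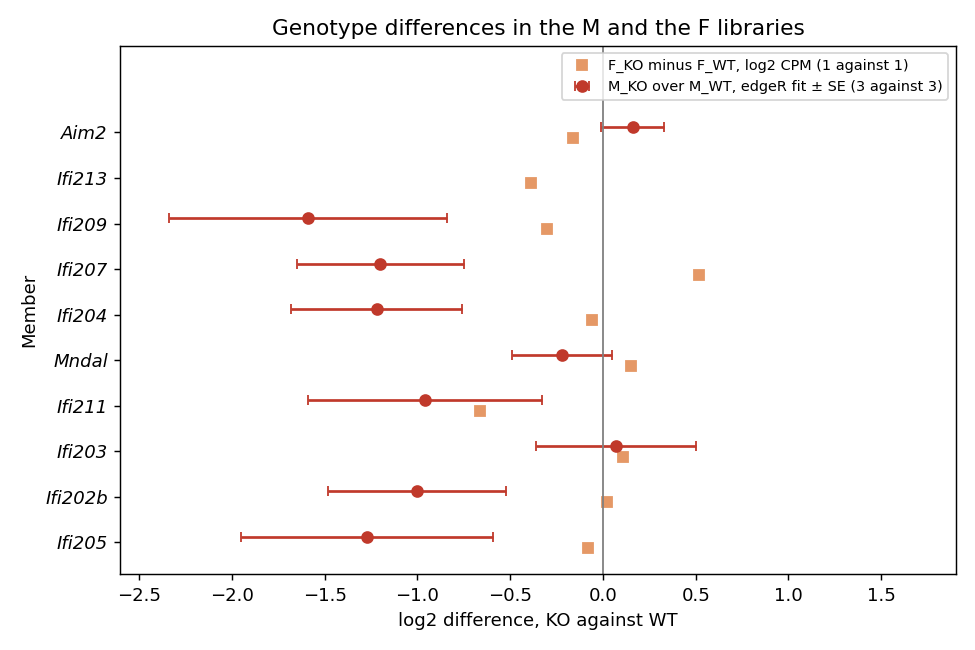
Log2 difference between KO and WT of each member, with circles for the edgeR fit of 3 M_KO against 3 M_WT libraries (bars, SE) and squares for F_KO minus F_WT log2 CPM (1 library each, no error). Ifi209, Ifi205, Ifi204, Ifi207, Ifi202b and Ifi211 lie between -1.59 and -0.96 in M, whereas in F they lie between -0.66 and 0.52, and Ifi213 has no M value because it did not pass the filter.

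The genes around the members were read in the same way. Within 1000000 bases of the outermost members, 12 other genes passed the filter, 5 of them inside the cluster. Ifi214, a further family member, was at 5.38, 0.410 and 1.12 CPM in M_KO and 16.4, 5.27 and 1.52 CPM in M_WT, and at 2.0 CPM in F_KO and 1.35 CPM in F_WT, with a correlation of 0.91 to the interferon-stimulated mean. Its range of 5.02 log2 units met the on/off rule and was wider than that of any member. The highest library (M_WT_5643) and the lowest (M_KO_5645) were the same as for Ifi209, Ifi204 and Ifi207. They were also the highest (1.62) and lowest (-1.49) of the interferon-stimulated mean itself, so this likeness is not particular to Ifi209. Ifi206 had 4, 3 and 26 counts in M_KO and 17, 2 and 3 counts in M_WT, and 45 counts in F_KO and 39 in F_WT, so that M_KO_5642 and the F libraries were again its highest. Ifi208 was at 0.240 to 2.61 CPM, the pseudogene Ifi203-ps was at 3.83 to 17.2 CPM, and the pseudogene Gm18445, between Ifi202b and Ifi205, at 2.59 to 22.1 CPM.

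Outside the cluster, 7 flanking genes passed the filter and had a median range over the 8 libraries of 1.65 log2 units, where all tested genes had 0.92. Igsf9 ranged over 3.75 and Cfap45 over 2.35 log2 units, both at low levels. Igsf9 was at 0.509, 0.768 and 1.04 CPM in M_KO and 0.886, 1.22 and 0.101 CPM in M_WT, and at 1.91 CPM in F_KO and 2.56 CPM in F_WT, so that the F libraries were highest. All 7 lie before Aim2, and past Ifi205 no gene in the window passed the filter.

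The members share sequence, which bears on how far single values can be trusted. Exonic lengths in the deposited table equalled those of GENCODE M21 for all 10. In its transcripts, the share of distinct 50-base words that also occur, on either strand, in a transcript of another gene was 0% for Ifi202b and 0.742% for Aim2, between 7.29% and 20% for Ifi207, Ifi203, Ifi213, Ifi205, Mndal and Ifi204, 33.7% for Ifi209 and 72.8% for Ifi211. Ifi211 shares 44.7% of its words with Ifi205 and 30.1% with Ifi204, and Ifi209 shares 33.4% with Ifi214. Counts of Ifi211 and Ifi209 are therefore uncertain, while those of Ifi202b and Aim2 are nearly free of shared words. Ifi203 and Ifi202b share no word of this length. Mndal and Ifi203 overlap by 37 exonic bases on the same strand, and Ifi213 shares 13.6% of its words with Ifi208 and 4.47% with Ifi206. The sources used here do not say how reads that match several genes were counted.

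Genes that work with these proteins were read from lists. Of 10 measured genes of the AIM2 inflammasome list, 7 had a lower and 3 a higher fitted value in M_KO (median log2 difference -0.24), and none was called by edgeR or DESeq2. Pycard was at 53.9, 36.4 and 51.4 CPM in M_KO and 48.5, 75.5 and 57.5 CPM in M_WT, and Casp1 at 84.1, 57.7 and 55.7 CPM in M_KO and 60.1, 64.3 and 64.0 CPM in M_WT. For both genes the groups overlapped, as they did for Gsdmd, the pore-forming target of caspase-1 (110 to 137 CPM in M_KO and 97.9 to 121 CPM in M_WT), and for the sensor Nlrp3 (264 to 423 CPM in M_KO and 346 to 469 CPM in M_WT). Il1b, which encodes the cytokine that caspase-1 matures, was at 376, 425 and 118 CPM in M_KO and 1780, 552 and 578 CPM in M_WT. Every M_KO library was below every M_WT library, as in 6.95% of all genes tested, and neither tool called Il1b.

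Of 9 tested genes of cytosolic DNA sensing through STING, 4 had a lower and 5 a higher fitted value (median 0.17), and none was called. Tmem173, which encodes STING, was at 10.2, 22.1 and 8.90 CPM in M_KO and 6.94, 6.87 and 8.30 CPM in M_WT, and Mb21d1, which encodes cGAS, at 16.4, 11.3 and 15.8 CPM in M_KO and 25.3, 20 and 17.2 CPM in M_WT. Their kinase Tbk1 (169 to 210 CPM in M_KO and 188 to 207 CPM in M_WT) overlapped between the groups, and the factor Irf3 was at 37.3 to 41.4 CPM in M_KO and 33.9 to 36.2 CPM in M_WT. The groups did not overlap for Tmem173 and Irf3, higher in M_KO (as in 9.09% of all genes tested), or for Mb21d1, lower in M_KO (6.95%). The receptor and signalling list had 5 lower and 5 higher of 10 (median 0.01, none called), with Ifnar1 at 224 to 340 CPM in M_KO and 315 to 351 CPM in M_WT. Ifnb1, the gene for interferon beta, stayed at 0.373 CPM or less in every library and was not tested. Targets linked to interferon gamma had a lower fitted value in 11 of 13 (median -0.77, none called). Of the 2 named here neither is near that median, with log2 differences of -0.16 for Irf1 and 0.11 for Gbp2. Irf1 was at 169 to 245 CPM in M_KO and 209 to 256 CPM in M_WT, and Gbp2 at 63.0 to 242 CPM in M_KO and 117 to 150 CPM in M_WT.

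Markers of other cells were summed in each library, and no relation of these sums to the members was computed. The summed level of 8 dendritic cell markers was 59.96 to 88.94 CPM in M_KO and 100.3 to 179.8 CPM in M_WT, and without Bst2, which interferon also induces, 12.3 to 16.1 CPM in M_KO and 23.8 to 42.0 CPM in M_WT, with Siglech at 0 in M_KO_5645, M_WT_6258 and M_WT_6255 and Cd209a at 0 in M_KO_5642, F_KO and F_WT. Both F libraries lay between these ranges without Bst2, at 19.1 CPM in F_KO and 22.5 CPM in F_WT. The lowest sum without Bst2 was in M_KO_5944 within M_KO (12.3 CPM) and in M_WT_5643 within M_WT (23.8 CPM). Those libraries had the highest interferon-stimulated list mean of their groups. Between the M groups the order ran the other way, with every sum without Bst2 higher in M_WT than in M_KO. The list mean was also lower in M_KO_5645 and M_KO_5642 than in every M_WT library. What these sums share with the list was not tested. Sums of 8 B cell markers were 105.6 to 309.4 CPM in M_KO and 78.8 to 195.7 CPM in M_WT, and 366.0 CPM in F_KO and 235.5 CPM in F_WT, with none at 0. Sums of 8 neutrophil markers were 252.2 to 615.7 CPM in M_KO and 203.6 to 384.7 CPM in M_WT, 537.2 CPM in F_KO and 249.7 CPM in F_WT, with Mpo at 0 in all 8 libraries. Sums of T cell, eosinophil and mast cell markers were at most 4.11, 10.9 and 23.9 CPM, with Ear1, Ear6 and Mcpt8 at 0 in all 8. The part of these cells in the members' values was not tested, and in bulk RNA fewer cells of a type cannot be told apart from less RNA per cell.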

How the data were processed

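The authors deposited whole read counts per gene, which they did not normalize, and FPKM values, scaled to gene length and library size. The authors also deposited log2 fold changes and p-values of M_KO over M_WT, with a signal per library that they scaled from the counts. Tools listed in the submitters' processing notes are featureCounts 1.5.0-p3, DESeq2 1.16.1 and HISAT2 2.0.5, with the builds GRCm38 and mm10. For the strand setting and the annotation release no source used here gives a value.

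The members, gene lists and tests were chosen with earlier results of these data known. Named genes are the members, Men1, other Ifi2 genes and variable neighbours in the window, the 3 genes most like each on/off member and preset genes of each list, plus called list genes, of which 1 preset gene is not reported here. Tests used edgeR 4.0.16 in R 4.3.3 (quasi-likelihood, TMM, default expression filter, Benjamini-Hochberg adjustment over all genes tested, threshold 0.05). The M fit had 6 libraries, 13646 genes and 4 residual degrees of freedom, and the fits over 8 libraries 13751 genes. Standard errors come from the quasi-likelihood F statistic, and the fits were tested on simulated counts. Log2 CPM used a prior count of 2. Alternatives were DESeq2 1.42.0, RLE scaling, other filters, limma 3.58.1 on log2(FPKM + 1), a covariate for animal numbers beginning with 56 and leaving out each library. Total counts of 18206427 to 22853583 put the floor of 3 counts at 0.120 to 0.170 CPM.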

Additional observations from a re-analysis of the deposited data

Results flagged for a closer look

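Of 20 groups of 4 libraries (the 10 members, by genotype over M and F), 2 held a single library far from the rest. Chance flags about 1 in 20, but that rate is no yardstick here. The members were chosen with these values known, and the groups share libraries. Both flagged groups were the KO libraries with M_KO_5645 lowest: in Ifi209 the gap to the next library was 0.928 of the range of log2 CPM, and in Ifi211 it was 0.887. Counts of both genes are uncertain, since 33.7% and 72.8% of their 50-base words occur in other genes, and the part of shared reads in these low values was not tested.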

How the results depend on the processing

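The count of members called was 0 in M_KO against M_WT by edgeR, and 0 with DESeq2, RLE scaling, either other filter, the fit of 4 groups, the covariate for animal numbers, limma on log2(FPKM + 1) and without any 1 library. It was also 0 in the genotype fit over 8 libraries and for the interaction, with DESeq2, without the filter and without any 1 library (for the interaction, any 1 M library). The log2 ratio of the summed CPM (-0.62) was between -0.73 and -0.54 under other scalings or without Ifi202b, and between -0.94 (without M_KO_5944) and -0.38 (without M_WT_5643) without 1 library. The on/off pattern held for 2 members, for 1 (Ifi209) in the 6 M libraries alone and for 4 (with Ifi205 and Ifi211) at 8-fold. The sign of the Ifi203 difference (0.07) turned with the covariate (-0.09) and in limma on FPKM (-0.01), and ranged from -0.46 to 0.38 without 1 library. The cause was not tested. No other member's difference turned under the alternatives run. Over all genes edgeR called 3, DESeq2 188, and edgeR 16 without the filter and 0 (without M_WT_6255) to 21 (without M_WT_5643) without 1 library. No paired analysis was possible because no animal number occurs in 2 groups. Depth limits Ifi213 most, with at most 38 counts in a library.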
